A study of Mus musculus with 14 samples.

Results

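Mouse macrophages treated with lipopolysaccharide (LPS) were compared with untreated macrophages on 2 arrays each, 4 of the 14 one-colour microarrays of the series. The arrays were taken by title, LPS 1 and LPS 2 against No treatment 1 and No treatment 2. All cells were thioglycollate-elicited primary macrophages from female C57BL/6 mice aged 6 weeks. The LPS group received the bacterial stimulus alone, and the label of the other group names no vehicle. The remaining 10 arrays came from cells given LPS with a nuclear receptor agonist (GW3965, an LXR agonist, or GW7845, a PPARγ agonist), poly(I:C), or poly(I:C) with either agonist. They entered only the estimate of the spread. Neither the dose nor the duration of LPS is given in the sources used here, so the results describe 1 treatment as applied. Macrophages elicited in this way have been recruited by an irritant before any stimulus in culture, so the untreated cells are not resting resident cells. The series text gives 2 biological replicates per condition without saying whether each was an animal or a pool. In the main fit the p-values measure the spread left within groups of all 14 arrays once the shift between 2 array sets, described below, is removed. That is not the whole spread between preparations.

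LPS is the glycolipid of the outer membrane of Gram-negative bacteria. The co-receptor CD14 hands it to the complex of TLR4 and MD-2 (the product of Ly96), which signals through a pair of adaptor branches. The branch through MyD88 activates NF-kB and AP-1, which drive cytokine and chemokine genes. The branch through TRIF activates IRF3 and the gene for interferon beta, which acts back on the cells through STAT2 and IRF9 and turns on the interferon-stimulated genes. Macrophages stimulated in this way are known to make inflammatory mediators in quantity, to present antigen more strongly and to change their arginine, glucose and lipid metabolism.

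Levels are log2 values of the deposited intensity, so 0 is the median probe of an array, and they are compared between arrays for the same probe and not between probes. Values below -3.87 were raised to that floor, so a rise measured against an array held there is given as "at least". Differences are log2 ratios of LPS over untreated, with standard errors (SE) from a limma fit in which the 2 array sets described next were a block. A probe was called where its adjusted p was under 0.05. In bulk RNA, fewer cells of a type and less RNA per cell cannot be told apart.

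LPS changed the levels of many genes in both directions, and the largest increases exceeded the largest decreases. Of 9533 probes tested, 1698 were called (17.8%), 917 of them higher (9.62%) and 781 lower (8.19%). The increase was at least 4-fold for 379 probes, at least 16-fold for 84 and at least 64-fold for 38. The decrease was at least 4-fold for 164 probes and at least 16-fold for 9, and no probe fell 64-fold. The median difference was 1.80 among the probes called higher and -1.50 among those called lower, against 0.06 over all probes. Probes called higher had a median level of 2.84 in LPS cells and 0.61 in untreated cells. Probes called lower had a median level of 0.56 in LPS cells and 2.13 in untreated cells. Both LPS arrays lay beyond both untreated arrays for 882 of the probes called higher and 728 of those called lower. Of all probes 39.5% showed such a separation. Most called probes did, so the same statement about named genes below adds little to their calls.

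**Figure D1:**
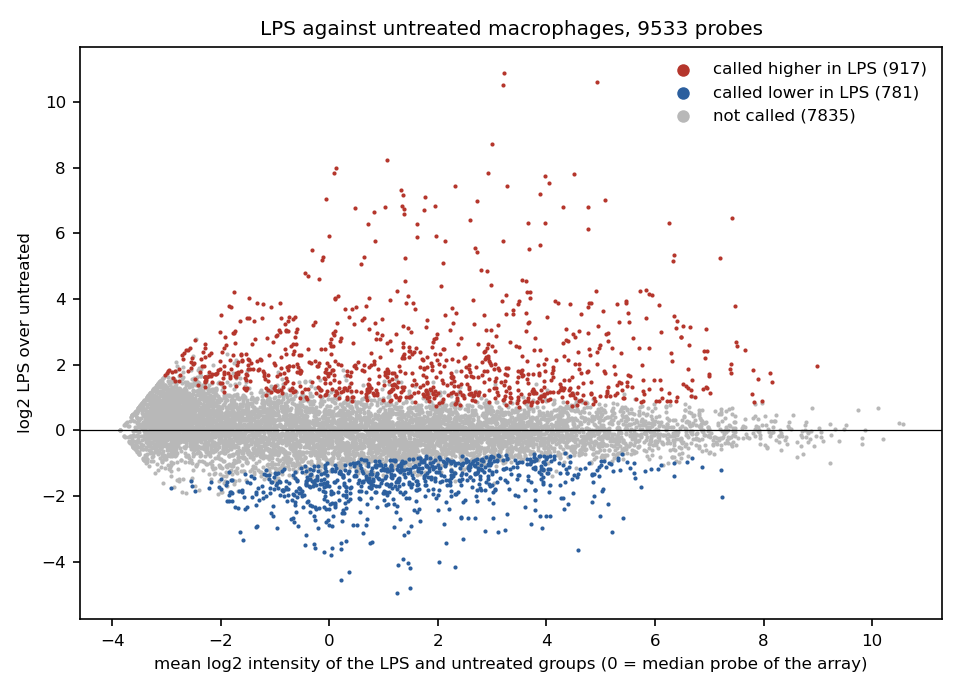
Difference between LPS and untreated macrophages (y axis, log2) against the mean level of both groups (x axis, log2 intensity), 1 point per probe. Red points were called higher (917), blue points lower (781) and grey points were not called; increases reach 10.88 (Il6), and the lowest point with a gene symbol is -4.80 (Tmem273).

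The arrays of the series fell into 2 sets by the 10th percentile of their intensity. It was 0.179 on LPS 1 and 0.137 on untreated 1 (set A), and 0.0783 on LPS 2 and 0.0549 on untreated 2 (set B). The labels do not give the cause of this split. Among the 4 compared arrays set A is number 1 and set B number 2, so set and replicate cannot be told apart. The floor was reached by 1.00% of tested probes on LPS 1 and 6.33% on LPS 2, against 1.86% on untreated 1 and 11.4% on untreated 2. The pairs share no array, so each gives the difference on its own. Their differences correlated at r = 0.79 (Spearman's rho 0.67) across the 9519 probes measured on all 4 arrays, which is a description over genes and not over replicates. The sign was the same in both sets for 72.5% of all probes. It was the same for 1695 of the 1698 called, the other 3 having no value in 1 set. For called probes this agreement is partly fixed in advance, since disagreement between the sets adds to the spread used for the call. Without the block the count was 752 (7.89%, 500 higher and 252 lower), all of them among the 1698, and the median SE was 0.56 in place of 0.39. Leaving out 1 array gave 947 calls without LPS 1, 933 without LPS 2, 1090 without untreated 1 and 1070 without untreated 2. In all, 611 probes, 420 higher and 191 lower, were called in each of 7 alternatives: without the block, without each of these arrays in turn, without the first GW7845 + poly(I:C) array, and after quantile normalization. Every gene named below as risen or fallen belongs to these 611 unless its sentence gives the exception. Quantile normalization moved the median difference over all probes to -0.08, and no called probe changed sign under it.

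**Figure D2:**
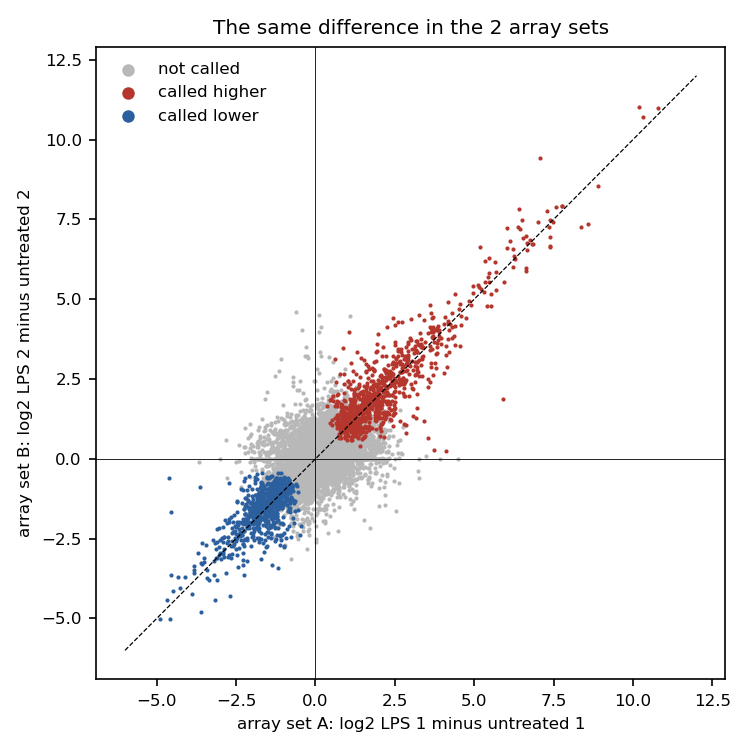
Difference between LPS and untreated in array set A (x axis) and in array set B (y axis), both on the log2 scale, 1 point per probe. Called probes (red higher, blue lower) lie along the dashed line of equality, while many grey points, not called, change sign between the sets. Agreement among called probes is partly fixed by how they were called.

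Lyz2, the macrophage lysozyme, stood at 10.92 and 10.28 on the LPS arrays and at 10.79 and 9.96 on the untreated arrays, a high level on every array. Of 9 macrophage markers tested 3 rose: Cd14, Msr1 (a scavenger receptor) and Adgre1 (F4/80), which rose by 2.21 (adjusted p = 0.0025). Of 53 markers of 8 other cell types, 2 were called higher and 2 lower, against 9.83% and 8.06% of all tested genes. The cathelicidin gene Camp, fixed as a neutrophil marker, rose by 4.59, with levels of 2.63 and 1.59 on the LPS arrays and -1.88 and -3.09 on the untreated arrays. The neutrophil markers Ngp, S100a8 and Ltf had differences of 0.87, 0.69 and -1.50 and were not called. The neutrophil protease Prtn3 was called lower at -1.53, a size limited by the floor. It had -2.78 on LPS 1 and the floor on LPS 2, against -1.47 and -2.12 on the untreated arrays. The B-cell markers Ms4a1 and Vpreb1 were called at 1.43 and -1.40. Of these 4 called markers only Camp was called without the block (adjusted p = 0.48 for Prtn3, 0.13 for Ms4a1 and 0.28 for Vpreb1). Prtn3 and Vpreb1 lost their calls without any 1 of the 4 arrays too, and Ms4a1 without LPS 1, LPS 2 or untreated 1. The summed intensity of the 53 markers was 271 and 185 on the LPS arrays and 214 and 138 on the untreated arrays. That of the 9 macrophage markers was 2738 and 1771 on the LPS arrays and 1951 and 1144 on the untreated arrays, and the sums of different probes are not compared with each other. The part of other cells in the results was not tested.

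The largest increases were in cytokines, chemokines and interferon-induced genes whose untreated levels lay mostly near or below the median probe. Il6, which encodes interleukin-6, had levels of 9.13 and 8.17 on the LPS arrays against -1.66 and -2.80 on the untreated arrays. Il1b had 10.85 and 9.63 against 0.67 and -1.39 on the untreated arrays, and Cxcl10 had 9.08 and 7.82 against -1.25 and -2.87. These 3 genes had the largest differences of all genes with a symbol, at 10.88 (SE 0.33), 10.60 (SE 0.59) and 10.51 (SE 0.38), and the groups were far from overlapping in each. Ptx3, a pattern recognition protein of the pentraxin family, was at the floor on both untreated arrays and at 4.73 and 3.49 on the LPS arrays, a rise of at least 7.98. Upp1, a uridine phosphorylase, had 5.37 and 4.58 on the LPS arrays against -1.98 and -2.67 on the untreated arrays and rose by 7.30 (SE 0.56, adjusted p = 3.8e-07). Among the 20 largest increases 8 were cytokines or chemokines and 8 were interferon-induced genes, and the remaining 4 were Ptx3, Upp1, Ptgs2 and Edn1.

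The largest decreases were smaller, and the genes were above the median probe in untreated cells. Tmem273, a membrane protein gene, had -0.28 and -1.55 on the LPS arrays against 4.31 and 3.46 on the untreated arrays, and fell by 4.80 (SE 0.47, adjusted p = 5.0e-06). Arrb1, the beta-arrestin that desensitises G-protein-coupled receptors, had -2.25 and -1.88 on the LPS arrays against 2.44 and 2.53 on the untreated arrays and fell by 4.55. Cnr2, the cannabinoid receptor of immune cells, fell by 3.58, the clock output transcription factor Dbp by 3.45 and the glycosyltransferase Gcnt1 by 3.45. No LPS array reached an untreated array for any of the 19 genes with the largest decreases. Tns1, a focal adhesion protein, fell by 4.10 with both LPS arrays below 0, and lost its call without LPS 1 (adjusted p = 0.086), untreated 1 (0.062) or untreated 2 (0.059).

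**Figure D3:**
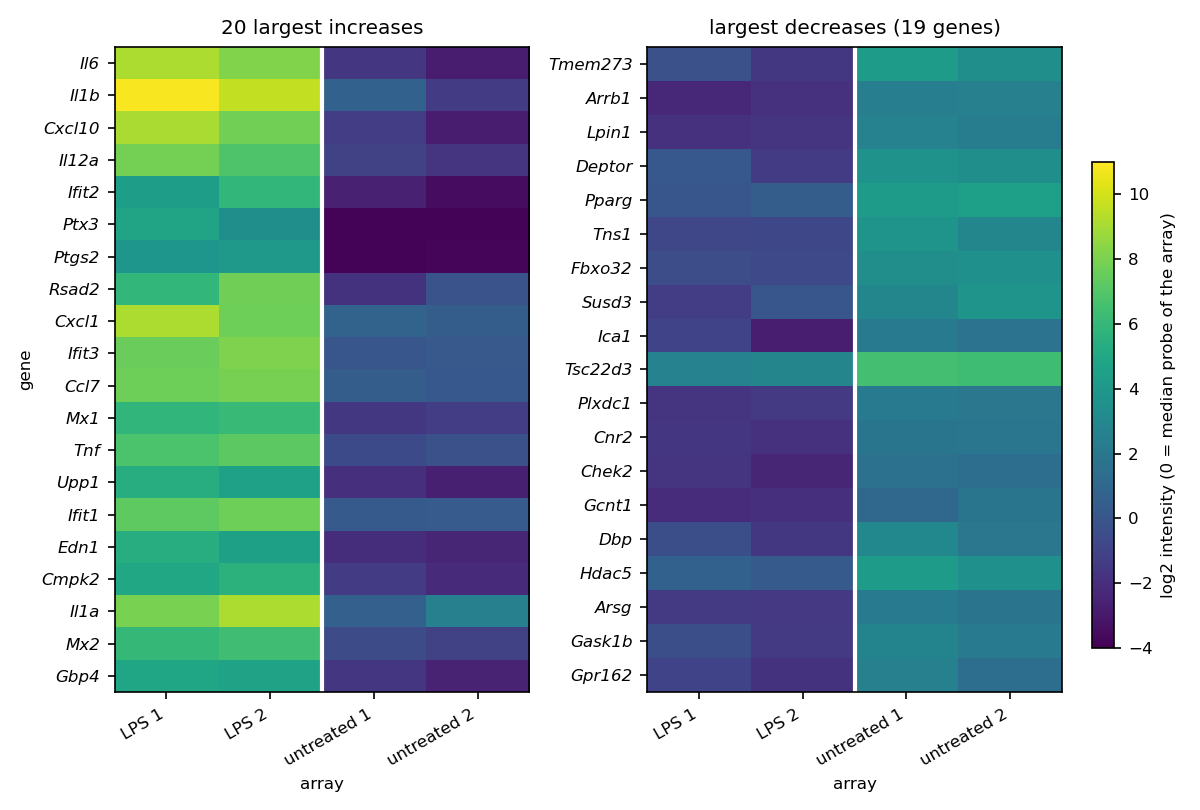
Level on each array (colour, log2 intensity, 0 being the median probe) of the 20 genes with the largest increases (left) and the 19 genes with the largest decreases (right), LPS arrays left of the white line and untreated arrays right of it. Every gene on the left is brighter, and every gene on the right darker, on both LPS arrays than on both untreated arrays. The choice of genes required this.

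Short stretches of 8 promoters are printed here because their genes rose together under LPS and hold letters that NF-kB or the interferon-activated factors are known to bind. The kB consensus and the interferon-stimulated response element (ISRE, a doubled GAAA core) were searched on both strands in the 250 bases before each start in the RefSeq promoter table of build GRCm38.p6, where 6738 of the 8422 genes tested had an entry. Capitals mark the matches, which run together where matches overlap, and each sequence reads 5′ to 3′ along its gene's strand. Those of the first 4 genes match the kB consensus, Cxcl10 matching the ISRE too, and those of the last 4 match the ISRE.
Cxcl10 (chr5:92348980-92349109, minus strand): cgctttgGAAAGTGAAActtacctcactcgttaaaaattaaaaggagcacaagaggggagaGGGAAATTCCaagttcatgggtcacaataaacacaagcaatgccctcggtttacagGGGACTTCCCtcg
Il6 (chr5:30013014-30013103, plus strand): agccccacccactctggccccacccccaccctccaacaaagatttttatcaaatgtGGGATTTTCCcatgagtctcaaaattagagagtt
Cxcl1 (chr5:90891135-90891204, plus strand): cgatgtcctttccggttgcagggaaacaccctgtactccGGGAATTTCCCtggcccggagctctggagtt
Nfkbia (chr12:55492658-55492727, minus strand): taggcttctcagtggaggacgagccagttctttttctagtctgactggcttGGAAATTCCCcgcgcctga
Ifit1 (chr19:34640759-34640828, plus strand): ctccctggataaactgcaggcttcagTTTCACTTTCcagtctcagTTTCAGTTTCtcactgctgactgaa
Ifit3 (chr19:34583359-34583428, plus strand): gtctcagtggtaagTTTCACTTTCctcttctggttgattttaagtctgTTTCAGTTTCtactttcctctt
Isg15 (chr4:156200859-156200928, minus strand): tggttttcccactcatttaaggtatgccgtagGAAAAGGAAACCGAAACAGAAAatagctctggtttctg
Rsad2 (chr12:26456543-26456602, minus strand): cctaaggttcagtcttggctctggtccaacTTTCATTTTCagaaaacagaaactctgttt

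The kB consensus was present in 54 of 651 promoters of genes called higher (8.29%) and in 27 of 566 of genes called lower (4.77%), against 5.51% of all tested genes and 4.46% of the 27025 genes in the table. The ISRE was present in 46 of 651 (7.07%) and 16 of 566 (2.83%), against 3.50% of tested genes and 3.46% of the table. Another 3 motifs were searched in the same way. The GAS element (TTC and GAA with 3 bases between) was present in 8.14% of promoters of genes called higher and 5.83% of those called lower, against 7.05% of tested genes. The AP-1 site (TGANTCA) was present in 7.99% and 5.65%, against 6.84%, and the E-box (CACGTG) in 10.8% and 10.6%, against 10.0%. Among the interferon-induced genes and GTPases called higher, 12 of 30 promoters held an ISRE, 8 a GAS element, 5 an AP-1 site, 1 the kB consensus and 0 an E-box. Among the cytokine, chemokine and NF-kB genes called higher, 11 of 34 held the kB consensus, 8 an AP-1 site, 5 a GAS element, 2 an ISRE and 0 an E-box. A match describes letters and not a bound site, and a promoter without one may hold other forms of the element outside this window.

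Genes that sense bacterial and viral products mostly rose, though not the LPS receptor itself. Of 23 tested sensing genes 14 were called higher and 1 lower, where 9.83% of all 8422 tested genes were higher and 8.06% lower. Their median difference was 1.31, against 0.07 over all genes. The same shares and median over all genes stand beside the counts of every list below, and no list was tested against them. Tlr2, the receptor for bacterial lipoproteins, had 8.25 and 7.43 on the LPS arrays against 4.08 and 3.13 on the untreated arrays and rose by 4.24 (SE 0.22, adjusted p = 7.4e-09). Its partners Tlr1 and Tlr6 rose by 2.46 and 1.67. All LPS arrays lay above all untreated arrays for these 3 receptors. Clec4e (Mincle, a lectin that binds mycobacterial glycolipid) rose by 5.65, the RNA helicase Ifih1 (MDA5) by 5.35 and the nucleic acid sensor Zbp1 by 4.24. Casp4 (caspase-11 in mice), which binds LPS in the cytosol, had 6.90 and 5.92 on the LPS arrays against 3.24 and 2.49 on the untreated arrays and rose by 3.54. Cd14 rose by 2.69 and the adaptor Myd88 by 1.98. Tlr4 itself had 0.64 and 1.07 on the LPS arrays against 1.26 and 1.43 on the untreated arrays, a difference of -0.49 (SE 0.35) that was not called. Ly96 (MD-2) at 0.84 and the adaptor Tirap at 0.78 were not called either. The kinase Irak1, the member called lower, was at -0.90 and lost its call without the block (adjusted p = 0.45), LPS 1 (0.20), LPS 2 (0.12), untreated 1 (0.20) or untreated 2 (0.085).

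NF-kB subunits and their inhibitors rose together. Of 19 tested, 16 were called higher and none lower, with a median of 2.15. Among the subunits Nfkb2 rose by 3.92, Rel by 2.83, Relb by 2.41 and Rela by 1.99. Of the inhibitors, Nfkbie rose by 3.89 and Nfkbia (IκBα), whose promoter is printed above, by 3.47. Nfkbia had 8.77 and 7.38 on the LPS arrays against 5.44 and 3.78 on the untreated arrays (SE 0.43, adjusted p = 4.6e-05). The atypical inhibitor Nfkbiz rose by at least 3.50, with untreated 2 at the floor. Traf1, an adaptor of TNF receptors, rose by 4.27, and Cflar, which restrains caspase-8, by 4.21. Tnfaip3 (A20), which removes ubiquitin chains in the same pathway, was at 0.52 (SE 0.37) and was not called.

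Other stimulus-driven transcription factors moved in both directions, and AP-1 subunits did not move together. Of 29 tested, 10 were called higher and 5 lower, with a median of 0.66 (0.31 after quantile normalization). Batf, a partner of JUN proteins in lymphoid and myeloid cells, had 6.62 and 5.61 on the LPS arrays against 3.80 and 2.39 on the untreated arrays and rose by 3.02. Fosl1 rose by at least 2.38. Jun, the AP-1 subunit, was lower by 3.11, with 0.27 and 2.82 on the LPS arrays against 4.81 and 4.50 on the untreated arrays, and its call was lost without LPS 1 (adjusted p = 0.14) or untreated 1 (0.067). Fos was lower by 2.02 and lost its call without LPS 2 (0.0503). The C/EBP factors diverged, Cebpb rising by 1.93 and Cebpa falling by 2.33. Cebpa had -0.37 and -0.19 on the LPS arrays against 1.99 and 2.10 on the untreated arrays. The count of 15 was 6 without the block, 7 without LPS 1 and 8 without LPS 2 or untreated 2.

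Interferon response factors, STAT factors and their receptors and kinases were called higher in 8 of 20 and lower in 2 (median 0.96). Those called lower were the receptor chain Ifngr1 at -1.22 and Stat6 at -0.86. Neither was called without the block (adjusted p = 0.32 and 0.14). Irf7, which amplifies type I interferon, had 9.48 and 9.25 on the LPS arrays against 5.79 and 5.39 on the untreated arrays and rose by 3.78 (SE 0.24, adjusted p = 7.2e-08). Irf1 rose by 3.29, Stat2 by 3.14, the kinase Jak2 by 2.93 and Stat5b by 1.89. Irf9, the DNA-binding partner of STAT2, rose by 1.63 but lost its call without LPS 2 (adjusted p = 0.10) or untreated 1 (0.099). Irf3, which is activated by phosphorylation, was at 0.05 (SE 0.27) and was not called. Without LPS 2 the calls in this list numbered 5 in place of 10.

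Of the lists, those of interferon-induced genes had the most uniform calls. Their members were chosen with earlier results of these data known, so this uniformity carries no test. Of 28 tested antiviral genes 27 were called higher, and of 9 interferon-induced GTPases all 9, with medians of 3.86 and 5.75. The exception, Ifi204, a DNA sensor, was at 1.80 (SE 0.97) with the sets apart, since its level was 0.63 on LPS 1 and 5.85 on LPS 2. Ifit2, which binds viral RNA and blocks translation, had 4.43 and 5.93 on the LPS arrays against -2.63 and -3.50 on the untreated arrays and rose by 8.24 (SE 0.50). Ifit3 rose by 7.74 and Ifit1 by 7.21, and the radical enzyme Rsad2 (viperin) rose by 7.83; each of these 3 promoters is printed above with its ISRE. Cmpk2, the mitochondrial nucleotide kinase beside Rsad2, rose by 7.12, Mx2 by 6.98 and the exonuclease Isg20 by 6.32. The Schlafen genes Slfn4 and Slfn1 rose by 6.60 and 5.44, and Isg15, the ubiquitin-like modifier, by 3.19. The RNA editor Adar rose by 2.21 and the dNTP hydrolase Samhd1 by 2.11, both over 4-fold. Parp14 rose by 2.86 and lost its call without the block (adjusted p = 0.12). Siglec1, a sialic acid lectin, was at 1.55 and lost its call without the block (0.29), LPS 1 (0.24), untreated 1 (0.13) or untreated 2 (0.11) and after quantile normalization (0.097).

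The GTPases coat and break the vacuoles of intracellular bacteria and parasites. Gbp4 had 4.84 and 4.65 on the LPS arrays against -1.62 and -2.53 on the untreated arrays and rose by 6.82 (SE 0.27, adjusted p = 6.4e-10). Tgtp1 had 8.06 and 8.28 against 1.42 and 1.29 on the untreated arrays and rose by 6.81. Iigp1 (Irga6) rose by 6.81, Gbp3 by 6.31, Gbp2 by 5.75 and Igtp by 4.89. The regulators Irgm2 and Irgm1 rose by 4.09 and 3.30, less than the other 7. Several of these genes have near-identical neighbours, which the probes may not tell apart.

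Secreted cytokines rose in 13 of 23 tested and were lower in 1, with a median of 1.71. Il12a, the p35 subunit of interleukin-12, had 7.87 and 6.85 on the LPS arrays against -1.04 and -1.68 on the untreated arrays. Tnf had 6.78 and 7.22 against -0.61 and -0.27 on the untreated arrays. They rose by 8.72 (SE 0.30) and 7.44 (SE 0.33), and no LPS array came within 6 log2 units of an untreated one. Il1a rose by 7.01, Il18 by 4.13, the interleukin-1 antagonist Il1rn by 3.86 and Il15 by 3.55. The anti-inflammatory Il10 had 1.22 and 0.21 on the LPS arrays against -1.93 and -2.69 on the untreated arrays and rose by 3.03. Ebi3, a subunit of interleukins 27 and 35, rose by 1.76. Ifng, better known from lymphocytes, had 0.62 and 0.46 on the LPS arrays against -3.66 and -3.33 on the untreated arrays and rose by 4.04. Markers of T and NK cells were called in 0 of 10, which describes change and not presence. Cd3e had -2.53 and -2.51 on the LPS arrays and -1.64 and the floor on the untreated arrays. Gzma, a granzyme of such cells, had 4.38 and 4.20 on the LPS arrays and 4.32 and 4.01 on the untreated arrays. Cd4 and Cd2 were also above the median probe on every array, and the rest of the list was below it on every array. The part of such cells in the Ifng signal was not tested. Il16 was lower by 2.34 and lost its call in each fit that dropped 1 of the 4 arrays (adjusted p = 0.063 without LPS 1, 0.080 without LPS 2, 0.053 without untreated 1 and 0.090 without untreated 2).

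Growth factor genes moved in both directions. Of 21 tested, 6 were called higher and 3 lower, with a median of 0.28. Edn1, the vasoconstrictor endothelin-1, had 5.32 and 4.54 on the LPS arrays against -2.05 and -2.41 on the untreated arrays and rose by 7.17 (SE 0.33, adjusted p = 2.4e-09). Inhba, the activin A subunit, had 5.58 and 4.61 against -1.07 and -2.15 on the untreated arrays and rose by 6.71. Csf2 (GM-CSF) rose by 5.49, the EGF-family ligand Hbegf by 2.92 and Csf1 (M-CSF) by 2.69. The platelet-derived growth factor genes went the other way, and Pdgfa fell by 2.06 and Pdgfb by 1.84. Pdgfa had 3.82 and 2.73 on the LPS arrays against 6.05 and 4.62 on the untreated arrays, with no overlap.

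Chemokines rose in 18 of 30 tested and fell in none, with a median of 2.58. Ccl5, which attracts T cells and monocytes, had 11.14 and 10.18 on the LPS arrays against 5.03 and 3.34 on the untreated arrays and rose by 6.47. The monocyte attractants Ccl7, Ccl2 and Ccl12 rose by 7.53, 6.31 and 6.27. The neutrophil attractants Cxcl1 and Cxcl5 rose by 7.81 and 2.72, and the T-cell attractants Cxcl9 and Cxcl11 by 5.76 and at least 5.91. The macrophage inflammatory proteins Ccl3 and Ccl4 rose by 5.26 and 3.17. The dendritic cell and T-cell chemokines Ccl19, Ccl17 and Ccl22 rose by 3.41, at least 3.32 and 2.24. Xcl1 rose by 2.90 and lost its call without the block (adjusted p = 0.061). In these named genes both LPS arrays lay above both untreated arrays.

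Receptors for chemoattractants and cytokines were called higher about as often as genes in general. In the main fit no signalling chemokine receptor was called, their differences running from 1.40 (Ccr7) to -1.45 (Ccr2). Of 19 tested chemokine and complement peptide receptors 2 were called, both higher, where 9.83% of all tested genes were higher: the formyl peptide receptor Fpr2 and Ccrl2, a receptor that binds chemerin without signalling. Fpr2 had 7.87 and 7.80 on the LPS arrays against 1.64 and 1.79 on the untreated arrays, a rise of 6.12 (SE 0.26, adjusted p = 1.5e-09). Of 26 cytokine receptors 2 were called, also both higher, Il15ra by 3.12 and the TNF receptor Tnfrsf1b by 3.08. The medians were 0.44 and 0.28, and whether ligands and receptors differed in their share of calls was not tested. The receptors called numbered 3 in the first list without LPS 1, LPS 2 or untreated 1.

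Brakes on cytokine signalling were called higher in 9 of 21 tested and lower in 3, with a median of 0.90. Those called higher numbered 5 without the block and 7 after quantile normalization, and those called lower 3 in both. Socs1 had 5.25 and 4.59 on the LPS arrays against -0.41 and -1.57 on the untreated arrays and rose by 5.91 (SE 0.35, adjusted p = 2.8e-08), and Socs3 rose by 4.86. The related Cish and Socs2 rose by 2.98 and 1.99, and the MAP kinase phosphatase Dusp4 by 2.63. Sigirr, an orphan receptor that restrains interleukin-1 and Toll-like receptors, had -0.82 and -1.22 on the LPS arrays against 2.23 and 1.53 on the untreated arrays and fell by 2.89. Socs6 fell by 2.01 and the inositol phosphatase Inpp5d (SHIP1) by 1.75. In these 3 genes both LPS arrays lay below both untreated arrays.

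In the TNF superfamily of ligands and receptors 7 of 26 genes were called higher and 3 lower (median 0.21). Cd40, the receptor through which T cells license macrophages, had 7.95 and 7.46 on the LPS arrays against 1.11 and 0.74 on the untreated arrays and rose by 6.78 (SE 0.28). Tnfrsf11a (RANK), the receptor that drives osteoclast formation, rose by 4.25. The ligands Tnfsf9 (4-1BB ligand), Tnfsf10 (TRAIL) and Cd70 rose by 3.88, 3.41 and at least 2.99, and the death receptor Fas by 2.46. Tnfsf13 (APRIL), a survival factor of plasma cells, was lower by 1.33 and lost its call without the block (adjusted p = 0.12). Tnfsf12 (TWEAK) and the receptor Cd27 were lower by 1.66 and 1.43, and neither was called without the block (0.33 and 0.088), LPS 2 (0.099 and 0.058) or untreated 1 (0.16 and 0.058). Cd27 lost its call without LPS 1 as well (0.061). The count of 10 in this list was 6 without the block.

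Genes that supply peptides for antigen presentation were among those that rose, and the class II chains were not called. Of 25 tested genes 13 were called higher and none lower, with a median of 1.46. Tap1 and Tap2, the peptide transporter of the endoplasmic reticulum, rose by 3.73 and 2.51. The immunoproteasome subunits Psmb10 and Psmb9 rose by 2.41 and 2.36, and H2-Oa, a modulator of class II loading, by 2.73. Psmb9 had 7.11 and 5.98 on the LPS arrays against 4.74 and 3.63 on the untreated arrays. The proteasome activator Psme2 rose by 2.00 and lost its call without the block (adjusted p = 0.12). The class II chains H2-Aa and H2-Ab1 were at 0.26 (SE 0.41) and 0.53 (SE 0.35), the invariant chain Cd74 at 0.29 (SE 0.42) and B2m, the shared chain of class I, at 0.68 (SE 0.31), none of them called. The values of H2-Aa and Cd74 turned to -0.11 and -0.13 under quantile normalization. Without the block 8 genes of this list were called.

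Costimulatory and adhesion molecules rose in 8 of 25 tested (median 0.63, or 0.26 after quantile normalization). Cd86, which costimulates T cells, had 5.83 and 6.42 on the LPS arrays against 1.94 and 2.44 on the untreated arrays and rose by 3.93 (SE 0.29, adjusted p = 3.2e-07). Vcam1 rose by 3.68, Cd274 (PD-L1), which restrains T cells, by 3.14, Cd83 by 2.39 and the integrin chain Itgal by 2.26. Cd80, the other ligand of CD28, had 1.66 and 1.50 on the LPS arrays and 1.70 and 1.19 on the untreated arrays and was not called.

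Eicosanoid genes were called in both directions, as the plot of enzymes by array shows. Of 23 tested, 5 were called higher, 6 lower and 12 in neither direction, with a median of -0.21. The cytosolic phospholipase Pla2g4a, which frees arachidonic acid, rose by 1.82. The cyclooxygenase Ptgs2, at the floor on untreated 1 and at -3.80 on untreated 2, had 3.89 and 4.11 on the LPS arrays, a rise of at least 7.83. The prostaglandin E synthase Ptges had 4.87 and 4.63 against -1.42 and -1.63 on the untreated arrays and rose by 6.27 (SE 0.24, adjusted p = 6.0e-10). Lta4h, which makes leukotriene B4, had 1.19 and 1.47 on the LPS arrays against 4.15 and 4.63 on the untreated arrays and fell by 3.06 (SE 0.30, adjusted p = 5.3e-06). Hpgds, a prostaglandin D synthase, fell by 1.98 and the thromboxane synthase Tbxas1 by 1.17. The prostaglandin E receptor Ptger2 had -1.10 and -0.57 on the LPS arrays against 1.33 and 1.46 on the untreated arrays and fell by 2.23. Ltc4s, the leukotriene C4 synthase, was lower by 1.47 and lost its call without LPS 2 (adjusted p = 0.18) or untreated 1 (0.17). Without LPS 2 the list held 7 calls in place of 11.

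Genes of arginine uptake and use rose at several steps. Of 21 genes of arginine, tryptophan and related metabolism 7 were called higher and none lower (median 0.45, or 0.27 after quantile normalization). The tryptophan-degrading enzymes Ido1 and Kynu were at -0.18 and 0.02 and were not called. Nos2, which makes nitric oxide from arginine, had 4.02 and 2.94 on the LPS arrays against -0.03 and 0.26 on the untreated arrays and rose by 3.36 (SE 0.36, adjusted p = 1.3e-05). The arginine importer Slc7a2 had 5.56 and 5.08 against 1.18 and 1.23 on the untreated arrays and rose by 4.12. Gch1, which starts synthesis of the cofactor tetrahydrobiopterin, rose by 2.99, and Ass1, which rebuilds arginine from citrulline, by 2.72. The cystine importer Slc7a11 rose by 2.54 and the mitochondrial arginase Arg2 by 2.16. The cytosolic arginase Arg1 had 0.45 and -0.82 on the LPS arrays and -0.23 and 0.13 on the untreated arrays, so the groups overlapped and it was not called.

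**Figure D4:**
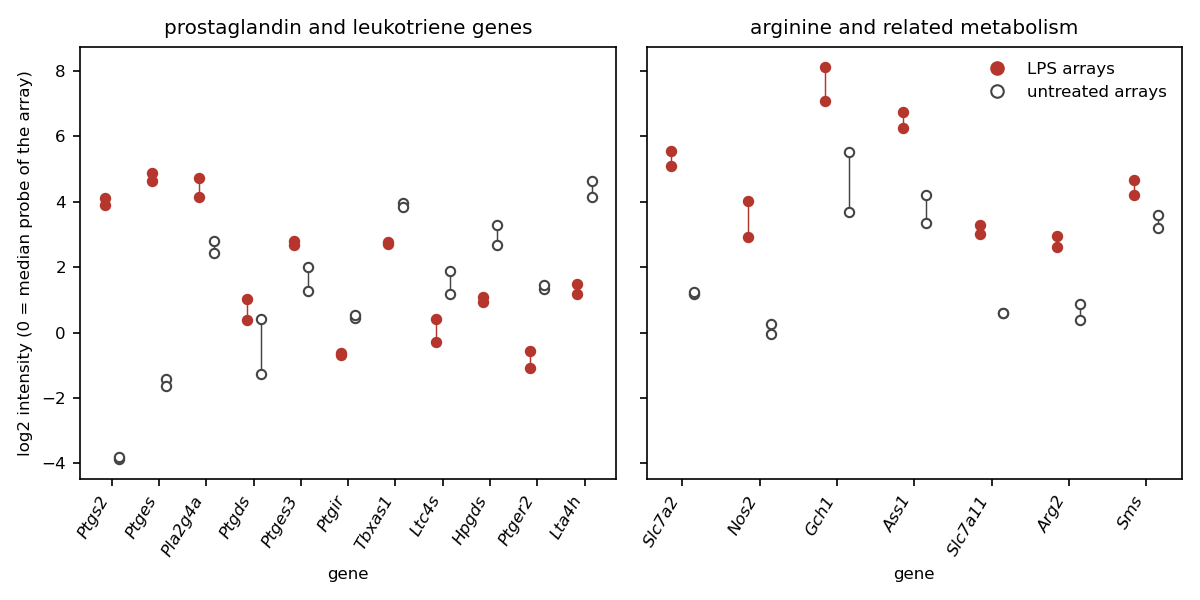
Level on each array (y axis, log2 intensity, 0 being the median probe) of the called genes of eicosanoid metabolism (left) and of arginine and related metabolism (right), red points for the 2 LPS arrays and open points for the 2 untreated arrays. Ptgs2, Ptges and Pla2g4a are higher in LPS cells, Tbxas1, Hpgds, Ptger2 and Lta4h are lower, and all 7 genes on the right are higher.

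Acute-phase and complement genes rose in 4 of 25 tested (median 0.29, or 0.06 after quantile normalization), where 9.83% of all tested genes were higher. Besides Ptx3 these were complement factor B (Cfb), which rose by 3.62, the serum amyloid Saa3 and the complement protease C1ra. Saa3 was already at 8.39 and 7.64 on the untreated arrays and reached 10.11 and 9.81 on the LPS arrays, a rise of 1.95. In coagulation 5 of 18 were called higher and none lower (median 0.14, or -0.05 after quantile normalization). F3, the tissue factor that starts clotting, rose by 2.65 and coagulation factor X (F10) by 2.55. Serpinb2, an inhibitor of plasminogen activators, had 5.64 and 6.03 on the LPS arrays against 0.90 and 1.63 on the untreated arrays and rose by 4.57. Procr, the protein C receptor, rose by 2.22 and lost its call without LPS 1 (adjusted p = 0.066), where 3 calls of the list remained.

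Of 24 matrix proteases and inhibitors 5 were called higher and 2 lower (median 0.53), and 3 without the block or 4 without LPS 2. The collagenase Mmp13 had 2.09 and 2.13 on the LPS arrays against -1.76 and -2.04 on the untreated arrays and rose by 4.02. The membrane protease Mmp14 rose by 3.80 and the inhibitor Timp1 by 2.82. In metal handling 2 of 15 were called higher and 1 lower (median 0.05), against 9.83% and 8.06% of all tested genes. The iron hormone hepcidin (Hamp) rose 7.98-fold and the iron transporter Slc11a2 5.65-fold. The cytosolic aconitase Aco1, which doubles as an iron sensor, was lower by 0.97 and lost its call without the block (adjusted p = 0.11) or any 1 of the 4 arrays (0.078 to 0.15). Hamp had 2.17 and -0.40 on the LPS arrays against -1.43 and -2.79 on the untreated arrays, without overlap. Among 30 genes of oxidative stress and glutathione 5 were called higher and 3 lower (median 0.15), and 2 without the block. The mitochondrial superoxide dismutase Sod2 had 8.19 and 7.72 on the LPS arrays against 4.14 and 3.50 on the untreated arrays and rose by 4.14. Cybb, the catalytic subunit of the phagocyte oxidase, rose by 2.65. The count of 8 was 2 without LPS 2 and 3 without untreated 1.

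In energy metabolism single enzymes moved in both directions. Of 21 glycolysis genes 4 were called higher and 3 lower (median 0.34, or 0.06 after quantile normalization). The hexokinase Hk2 and the phosphofructokinase Pfkp rose by 1.52 and 1.94, and the enolase Eno3 fell by 2.04. Hk2 had 4.80 and 5.38 on the LPS arrays against 3.20 and 3.93 on the untreated arrays. The count of 7 was 3 without the block and without LPS 1, LPS 2 or untreated 1. Of 40 genes of the respiratory chain and citric acid cycle 1 was called higher and 4 lower (median -0.20, or -0.47 after quantile normalization), where 17.8% of all probes were called. The cytosolic isocitrate dehydrogenase Idh1 had 1.47 and 1.25 on the LPS arrays against 3.97 and 4.07 on the untreated arrays and fell by 2.66 (SE 0.38, adjusted p = 0.00018). Cycs, cytochrome c, was higher by 1.27, and Suclg2, Idh3g and Mdh1 of the citric acid cycle and malate shuttle were lower by 1.39, 1.11 and 0.98. Without the block Idh1 alone of these 5 was called (adjusted p = 0.23 for Cycs, 0.065 for Suclg2, 0.41 for Idh3g and 0.30 for Mdh1), and each of the other 4 also lost its call in 2 or more of the fits that dropped 1 of the 4 arrays. The count of 5 was 1 without LPS 1, 2 without LPS 2 or untreated 2, 3 without untreated 1 and 9 after quantile normalization.

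Fatty-acid oxidation had the lowest median of the 38 lists, at -0.74. None of its 17 genes was called higher and 6 were called lower. Hadh, a dehydrogenase of the spiral, had 0.02 and -0.24 on the LPS arrays against 1.92 and 1.36 on the untreated arrays and fell by 1.76. The thiolase Acaa2 was lower by 1.78 and lost its call without the block (adjusted p = 0.053) or LPS 2 (0.052). Ppargc1b, a coactivator that drives mitochondrial genes, was lower by 1.91 and lost its call without LPS 1 (0.18), untreated 1 (0.11) or untreated 2 (0.060). The count of 6 was 2 without the block and without LPS 1 or LPS 2, and 3 without untreated 2. Of 18 genes of sterol and fatty-acid synthesis 3 were called lower and none higher (median 0.04, or -0.18 after quantile normalization). They were the acetyl-CoA synthetase Acss2 at -1.18, Mid1ip1 at -1.17 and the elongase Elovl1 at -0.72, none of them called without the block or without untreated 1, and 1 of the list was called without LPS 1, LPS 2 or untreated 2.

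Lipid handling and its nuclear receptors moved in both directions. Of 31 genes of lipid uptake, storage and efflux 5 were called higher and 6 lower (median -0.20, or -0.43 after quantile normalization). Ch25h, which makes 25-hydroxycholesterol, had 4.31 and 3.97 on the LPS arrays against -1.71 and -3.27 on the untreated arrays and rose by 6.63 (SE 0.65, adjusted p = 5.0e-06). Cyp27a1, which makes 27-hydroxycholesterol, had 0.80 and 1.31 against 3.20 and 3.30 on the untreated arrays and fell by 2.20. The fatty-acid-binding proteins diverged too. Fabp3 had 8.09 and 7.01 on the LPS arrays against 4.85 and 3.42 on the untreated arrays and rose by 3.41, while Fabp4 had 6.47 and 5.97 against 8.54 and 7.97 on the untreated arrays and fell by 2.03. The phosphatidate phosphatase Lpin1 fell by 4.32 and the lipid droplet protein Plin3 by 2.23. The count of 11 was 7 without the block, LPS 2 or untreated 1.

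Among 25 nuclear receptors and coregulators 1 was called higher and 4 lower (median 0.21). Pparg, the receptor that GW7845 binds, had 0.04 and 0.42 on the LPS arrays against 4.30 and 4.47 on the untreated arrays and fell by 4.16 (SE 0.33, adjusted p = 6.3e-07). Rxrg, a partner receptor, fell by 1.81. The orphan receptor Nr2f6 was lower by 1.56 and lost its call without LPS 2 (adjusted p = 0.054) or untreated 1 (0.067). The glucocorticoid receptor Nr3c1 was higher by 1.21 and lost its call without the block (adjusted p = 0.27), without any 1 of the 4 arrays (0.11 to 0.23) and after quantile normalization (0.069). Rora was lower by 1.44 and lost its call without LPS 1 (adjusted p = 0.17) or untreated 2 (0.10). The count of 5 was 3 without any 1 of the 4 arrays.

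Receptors for uptake of particles and dying cells changed unevenly. Of 22 tested, 5 were called higher and 3 lower (median 0.46, or 0.19 after quantile normalization). The receptor tyrosine kinase Axl, which recognises dying cells, had 1.52 and 2.65 on the LPS arrays against -2.88 and -0.91 on the untreated arrays and rose by 3.98. Its ligand Gas6 had -0.03 and 0.23 against 2.70 and 2.13 on the untreated arrays and fell by 2.31. The scavenger receptor Msr1 rose by 1.34. The inhibitory IgG receptor Fcgr2b was higher by 1.40 and lost its call without the block or untreated 2 (adjusted p = 0.053 in both), while the activating Fcgr3, at 7.08 and 6.14 on the LPS arrays and 7.93 and 7.69 on the untreated arrays, was lower by 1.19 and lost its call without the block (0.081), LPS 2 (0.22), untreated 1 (0.079) or untreated 2 (0.056). The count of 8 was 3 without the block, LPS 2 or untreated 2, 5 without LPS 1 and 4 without untreated 1.

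Of 38 lysosomal genes 1 was called higher and 4 lower, against 9.83% and 8.06% of all tested genes, with a median of -0.39. The inhibitor Cst7 (cystatin F) had 3.54 and 3.32 on the LPS arrays against -0.19 and -0.35 on the untreated arrays and rose by 3.70. The hydrolases Galc and Smpd1 (acid sphingomyelinase) fell by 2.18 and 1.64, and the proton pump subunit Atp6v0a1 by 2.17. The cathepsins themselves stood between 0.94 (Ctsc) and -1.16 (Ctsf), none of them called.

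Cell cycle genes were called in both directions, 8 higher and 9 lower of 52 (median -0.19). The D-type cyclin Ccnd2 had 4.87 and 4.23 on the LPS arrays against -0.61 and -2.06 on the untreated arrays and rose by 5.88 (SE 0.50, adjusted p = 9.9e-07). The cyclin-dependent kinase inhibitor Cdkn1a (p21) rose by 3.09. Mki67, a proliferation marker, had 5.43 and 5.39 against 1.81 and 1.86 on the untreated arrays and rose by 3.57. Among other genes of dividing cells the helicase subunits Mcm2 and Mcm3, the mitotic survivin gene Birc5 and the phosphatase Cdc25b were lower by 1.76, 0.94, 1.04 and 2.14, and the thymidylate synthase Tyms was higher by 1.17. None of these 5 was called without the block (adjusted p = 0.30 for Mcm2, 0.14 for Mcm3, 0.22 for Birc5, 0.060 for Cdc25b and 0.089 for Tyms) or without untreated 2 (0.088 to 0.36), and Cdc25b alone was called without LPS 1 and without LPS 2. The topoisomerase Top2a at -1.12, the kinase Cdk1 at -0.74 and the cyclin Ccna2 at -0.77 were not called. Chek2, a checkpoint kinase, had -1.70 and -2.39 on the LPS arrays against 1.64 and 1.42 on the untreated arrays and fell by 3.58. The activator E2f1 and the repressor Rb1 fell by 1.56 and 1.54. The stress genes of the Gadd45 family diverged, Gadd45b rising by 2.38 while Gadd45g fell by 3.03 and Gadd45a by 1.88. The count of 17 was 9 without the block, 11 without LPS 1 or LPS 2 and 10 without untreated 2.

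Of 22 apoptosis and survival genes 4 were called higher and 2 lower (median 0.46), and 3 without the block. The survival kinase Pim1 rose by 2.96 and the caspase inhibitor Birc3 by 2.61, while Bcl2 fell by 1.58. Bcl2 had 0.26 and 0.61 on the LPS arrays against 2.11 and 1.92 on the untreated arrays. In the MAP kinase cascade 4 of 21 were called higher and 3 lower (median 0.31). Mapkapk2 (MK2), which stabilises cytokine mRNAs, had 4.16 and 4.68 against 1.26 and 1.47 on the untreated arrays and rose by 3.05, and Map2k1 (MEK1) rose by 2.03. Map3k8 (TPL2) rose by 1.95 and lost its call without untreated 1 (adjusted p = 0.057). The count of 7 was 3 without the block and 4 without untreated 2.

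In the PI3K, mTOR and FoxO axis 1 of 26 genes was called higher and 5 lower (median -0.23). Among those lower were Deptor, Fbxo32, Sesn1 and Tsc22d3. Deptor, which binds and inhibits mTOR, fell by 4.20 on 1 probe and by 3.71 on another. The ubiquitin ligase Fbxo32 (atrogin-1) had -0.46 and -0.70 on the LPS arrays against 3.41 and 3.54 on the untreated arrays and fell by 4.06. The sestrin Sesn1 had 0.21 and -0.13 against 2.64 and 3.27 on the untreated arrays and fell by 2.92. Tsc22d3 (GILZ) had 2.67 and 2.84 against 6.49 and 6.33 on the untreated arrays and fell by 3.66. The groups did not overlap in these 4 genes.

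G-protein signalling held 4 genes called higher and 6 lower of 36 (median -0.34), against 9.83% and 8.06% of all tested genes. Of the RGS proteins, which switch G proteins off, 3 fell. Rgs2 had 3.74 and 3.56 on the LPS arrays against 6.83 and 6.68 on the untreated arrays and fell by 3.10 (SE 0.23, adjusted p = 3.6e-07). Rgs18 fell by 2.42 and Rgs10 by 1.91, while Rgs14 at 0.55 was not called. P2ry14, the receptor for UDP-glucose, had 6.59 and 5.98 on the LPS arrays against 3.81 and 3.58 on the untreated arrays and rose by 2.59, and the G-protein subunit Gnb4 rose by 2.31. Without untreated 2 the calls numbered 6 in place of 10.

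Of 32 heat shock and unfolded protein genes 4 were called higher and none lower (median -0.05), against 9.83% and 8.06% of all tested genes. The inducible HSP70 genes Hspa1a and Hspa1b, nearly identical in sequence and perhaps not told apart by their probes, rose by 3.86 and 3.44. Hspa1a had 5.56 and 5.25 on the LPS arrays against 1.97 and 1.13 on the untreated arrays. The cytosolic chaperones Hsp90aa1 and Dnaja1 were higher by 1.06 and 0.89 and lost their calls without the block (adjusted p = 0.11 and 0.16), LPS 1 (0.13 and 0.074), LPS 2 (0.069 and 0.19) or untreated 1 (0.14 and 0.059) and after quantile normalization (0.069 and 0.090). Dnaja1 lost it without untreated 2 as well (0.14). The stress factor Ddit3 (CHOP) was at -0.63 and was not called. The count of 4 was 2 without the block and without LPS 1, LPS 2 or untreated 1. In chromatin and RNA decay 2 of 28 were called higher and 3 lower (median -0.13), and 2 without the block. Zfp36 (tristetraprolin), which marks cytokine mRNAs for decay, was higher by 1.06 and lost its call without the block (adjusted p = 0.34) or LPS 1 (0.064). The class IIa deacetylase Hdac5 had 0.64 and 0.23 on the LPS arrays against 4.24 and 3.51 on the untreated arrays and fell by 3.43. The DNA methyltransferase Dnmt3a had 4.10 and 4.05 against 6.85 and 6.62 on the untreated arrays and fell by 2.66. The count of 5 was 2 without LPS 1 and 3 without untreated 1 or untreated 2. Of 39 ribosomal proteins and translation factors 1 was called (median -0.06, or -0.31 after quantile normalization), Eif6 at 1.22, which lost its call without the block (adjusted p = 0.25), without any 1 of the 4 arrays (0.12 to 0.23) and after quantile normalization (0.083).

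**Figure D5:**
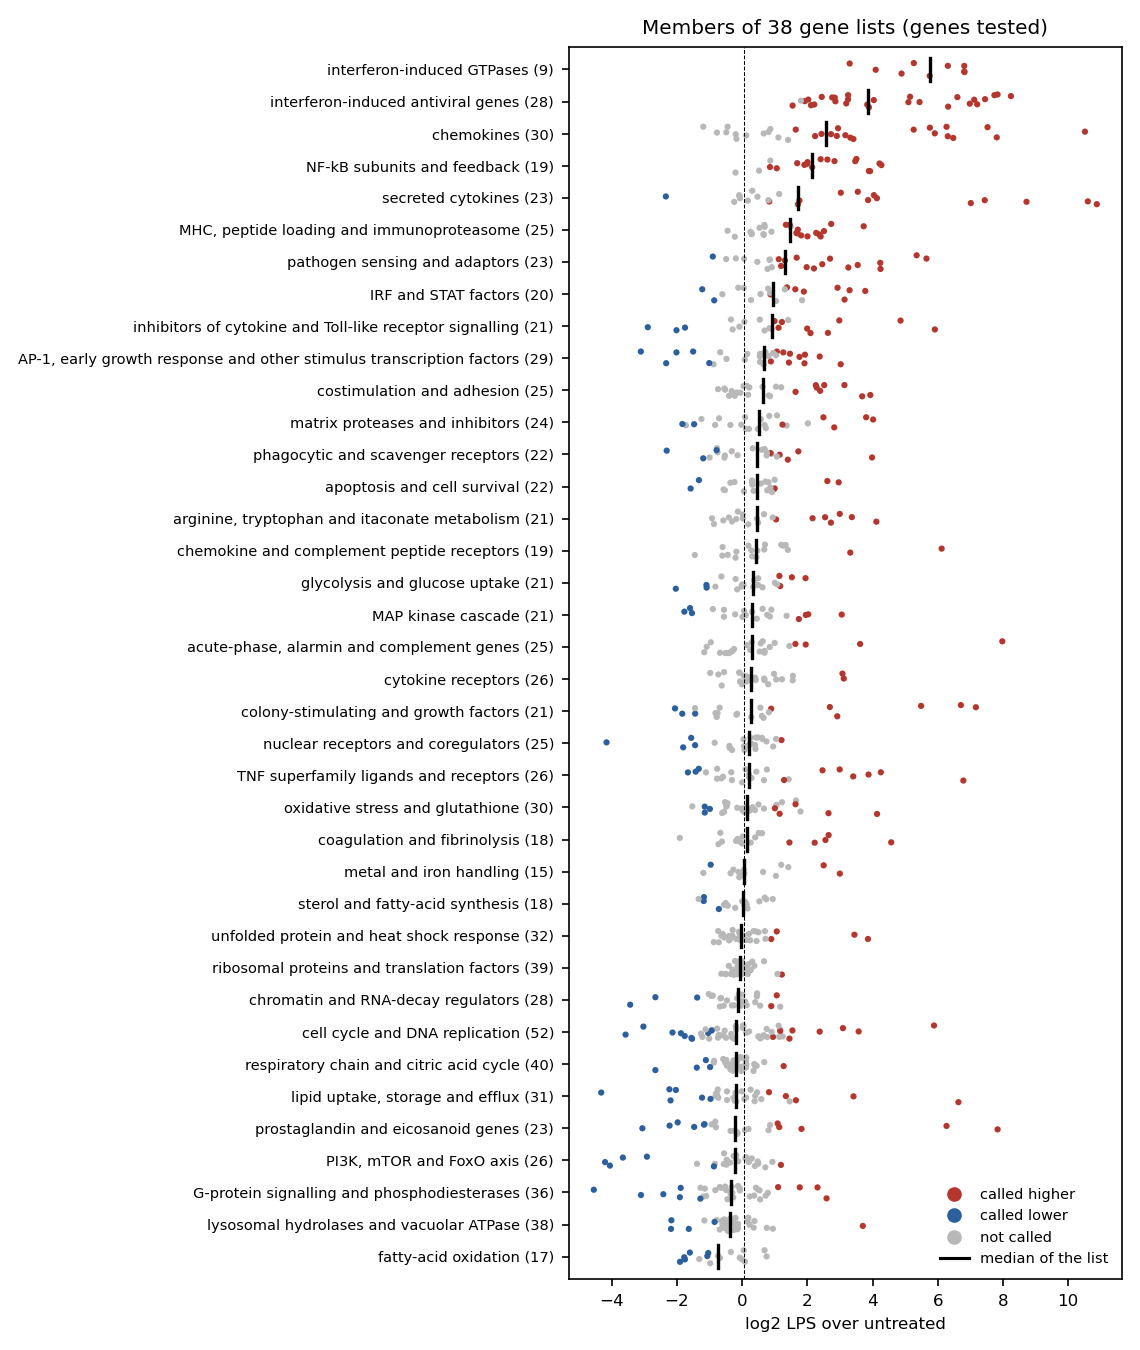
Difference between LPS and untreated (x axis, log2) of each tested member of 38 gene lists, sorted by the median of the list (black bar), with the number of genes tested in brackets and the median of all tested genes as a dashed line. Red members were called higher, blue lower and grey not called; the interferon-induced GTPases lead with a median of 5.75, and fatty-acid oxidation is last with -0.74.

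A few more called genes were taken because their probes were bright, which does not rank their transcripts. The GTPase Ifi47 had 8.98 and 8.82 on the LPS arrays against 3.46 and 4.04 on the untreated arrays and rose by 5.15. Ccl9 had 9.16 and 8.60 against 6.83 and 6.06 on the untreated arrays and rose by 2.43. The ribonuclease Rnaset2a rose by 1.75. The calmodulin gene Calm2 was lower by 1.13 and lost its call without the block (adjusted p = 0.16), LPS 2 (0.086) or untreated 2 (0.078).

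The sets disagreed most on Aoah, whose product removes acyl chains from LPS and so inactivates it. Aoah had 7.74 on LPS 1 and 4.56 on LPS 2, against 1.84 on untreated 1 and 2.68 on untreated 2, so the difference was 5.89 in set A and 1.88 in set B. Both LPS arrays lay above both untreated arrays, and the call was lost without untreated 1 (adjusted p = 0.059). Nearest to the threshold lay Adam8, a membrane protease, at -1.83 on the called side (adjusted p = 0.0498) and the formin Fmn1 at -0.82 on the other (0.05004). Adam8 lost its call without the block or any 1 of the 4 arrays.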

How the data were processed

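The deposited table holds 1 linear intensity for each of 10012 probes and 14 arrays of biotin-labelled RNA, scaled by the authors to an array median of 1. Background correction and scaling method were not found in the labels or headers. Intensities under the 5th percentile of positive values were set to it before taking log2. Probes above the 20th percentile on at least 2 arrays were kept (9584), of which 9533 could be tested. Group means and array set were fitted with limma 3.58.1 in R 4.3.3 (6 residual degrees of freedom, intensity trend, two-sided, Benjamini-Hochberg over all probes). The comparison was defined as paired by array set, so set was the block. Deviations from group means correlated between same-set arrays at 0.35 to 0.67 over 21 group pairs. Between same-numbered arrays they correlated at -0.54 to 0.67, number 1 being in set A in 6 of 7 groups. The sets were defined from these same intensities, so the correlations are no independent ground for the block. Lists use 1 probe per gene, that with the highest mean over all arrays. Of the probes, 8983 had 1 gene symbol. Some near-identical genes, such as the Ifit, Slfn, Gbp and H2 families, may share signal. Named genes were the 20 largest changes in each direction, list members and the probes nearest the threshold. Probes on which the sets differed most and called probes of the highest intensity were named too. The 20 largest changes were taken among called probes whose LPS arrays both lay beyond both untreated arrays, with the same sign in both sets. Members and lists were chosen with earlier results of these data known. The fit was checked on simulated data.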

Additional observations from a re-analysis of the deposited data

How the results depend on the processing

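The array-set block decided how many probes were called. Against 1698 with it (917 higher and 781 lower), the fit with no replicate block called 752, of which 500 were higher and 252 lower. With the number in the titles as the block 1065 were called, 430 of them lower, and with only the 4 compared arrays 2894 (1406 higher and 1488 lower). Leaving out 1 array gave 933 to 1776 calls (573 to 954 higher and 355 to 822 lower), the upper end being the fit without the first GW7845 + poly(I:C) array, where no LPS or untreated array was lost. Without LPS 1, LPS 2, untreated 1 or untreated 2 fewer samples entered the contrast. Another floor, pseudocount, filter, trend setting or treatment of missing values gave 1477 to 1717. No called probe changed sign under any of these fits. Another block, filter or trend setting leaves the difference of a probe measured on every array unchanged, so no sign could change there. The same holds where only arrays outside the comparison were left out. The correlation between sets, 0.79, was 0.79 after quantile normalization, 0.74 and 0.81 with a floor at the 1st or 10th percentile, 0.84 with a pseudocount of 0.1, 0.78 with no filter and 0.93 with a filter at the median. The cause was not tested.

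Of the named genes, 8 that were not called changed sign. Under quantile normalization the difference was -0.080 for Cd3e, -0.13 for Cd74, -0.11 for H2-Aa and -0.000114 for Lyz2. With a floor at the 10th percentile Cd3e was at -0.060. In array set A alone it was 0.68 for Arg1, -0.89 for Cd3e, -0.043 for Cd80, -0.42 for Ifi204 and -0.058 for Irf3. With 1 array left out the range was -0.66 to 0.39 for Arg1, -0.42 to 0.89 for Cd3e, -0.29 to 0.87 for Cd74, -0.054 to 0.33 for Cd80, -0.20 to 0.71 for H2-Aa, -0.75 to 4.35 for Ifi204 and -0.11 to 0.20 for Irf3. The table gives no detection calls, so signal over background could be judged from the level alone, and values near the floor are the least certain.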

Other observations

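Beyond the lists, genes of nucleotide salvage and NAD synthesis were among those that rose. These genes were picked after their values were seen, so their number carries no test. Besides Upp1 and Cmpk2, the purine nucleoside phosphorylase Pnp had 8.04 and 8.17 on the LPS arrays against 5.18 and 4.65 on the untreated arrays and rose by 3.19 (SE 0.25). The pyrimidine nucleotidase Nt5c3 rose by 3.56, the nucleoside importer Slc28a2 by 2.70, the adenylate kinase Ak4 by 2.59, Nampt, which makes an NAD precursor, by 2.48, and the deoxycytidine kinase Dck by 1.77. No LPS array overlapped an untreated array for these 6 genes, as for 882 of the 917 probes called higher. Genes of the MS4A family of membrane proteins rose as well, Ms4a6c by 3.12, Ms4a6d by 3.09, Ms4a4b by 2.91 (1.73 on another probe) and Ms4a6b by 2.82, though their probes may not tell these similar genes apart. The secreted protease inhibitor Slpi rose by 2.41, the interleukin-18 inhibitor Il18bp by 2.42 and the amino acid oxidase Il4i1 by 2.32.

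Genes of metabolic enzymes, several of them in amino acid, ketone and branched-chain breakdown, were among those that fell, chosen in the same way. The sulfurtransferase Tst had 1.49 and 0.13 on the LPS arrays against 5.00 and 3.25 on the untreated arrays and fell by 3.32 (SE 0.43). The racemase Amacr fell by 2.23, glutaryl-CoA dehydrogenase Gcdh by 1.96, the aspartate aminotransferase Got1 by 1.93, Bckdha of the branched-chain keto acid complex by 1.88 and the ketone enzyme Oxct1 by 1.85. Carnitine acetyltransferase Crat fell by 1.84, the glycine cleavage protein Gcsh by 1.80, the propionyl-CoA carboxylase subunit Pccb by 1.51 and the isomerase Ech1 by 1.33. Both LPS arrays lay below both untreated arrays in these 10 genes, as in 728 of the 781 probes called lower.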
